A study of Bos taurus with 20 samples.

Results

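The actin cytoskeleton and contractile genes ACTA2, MYLK, FLNA, ACTB and WIPF3 were followed in bovine endometrium on day 18. They were measured by all clones of a pair of spotted cDNA arrays whose single gene symbol in the array's gene table is one of these 5, which gave 10 of the 3072 clones spotted on the arrays and 5 of the 148 genes with a single symbol. FLNA was represented by 1 clone on the 18KB array and by 3 clones on the 18KO array, ACTB and MYLK by 2 clones each and ACTA2 by 1 clone on the 18KO array, and WIPF3 by 1 clone on the 18KB array.

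The tissue was endometrium from between the caruncles, cut from the lamina propria of the caudal uterine horn, of Simmental heifers. All heifers were synchronised with the prostaglandin analogue cloprostenol; the 4 pregnant animals (316, 426, 447 and 448, aged 17 to 20 months) were inseminated with frozen sperm of 1 bull and carried an intact conceptus, which was removed before sampling, and the 6 cyclic controls (330, 404, 427, 434, 440 and 449, aged 18 to 22 months) received sperm-free supernatant from the same bull and had no conceptus. RNA of each animal was labelled with 33P and hybridised to both arrays; the 18KB array holds 1536 clones of a library enriched for transcripts of pregnant animals, and the 18KO array 1536 clones enriched for transcripts of controls. Per the labels, the 18KO hybridisation of pregnant 316 had blurred spots and was done again later beside 2 other samples, through which its readings were scaled to the rest.

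Actin is a protein that polymerises into filaments, which give a cell its shape and form the tracks on which myosin pulls. ACTB encodes the beta-actin of the cytoskeleton of nearly all cells, while ACTA2 encodes the alpha-actin of smooth muscle, found also in pericytes and in myofibroblasts. MYLK phosphorylates the regulatory light chain of myosin when calcium rises and so starts contraction of smooth muscle. FLNA cross-links actin filaments and ties them to membrane proteins, and WIPF3 belongs to the WIP family, whose proteins bind the actin regulator WASP. In the uterus the vessels of the endometrium are wrapped in smooth muscle, and fibroblasts, epithelium and immune cells all hold a cytoskeleton of actin.

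Intensities are radioactive spot signals on a linear scale, as deposited, and levels of different clones are not compared, since each spot has its own binding strength. Differences are pregnant minus control on the log2 scale with their standard error from limma, with Benjamini-Hochberg adjustment over all features of an array, a feature being a named gene (mean of its clones) or a clone without a single symbol. A gene was called when its adjusted p was under 0.01 and its change at least 2-fold, the thresholds that the series' design text gives for the study's own analysis. Columns were not set to one median: medians ran from 1.39 to 3.18 for 18KB columns and from 1.67 to 3.90 for 18KO columns. On the 18KB array the medians of pregnant animals (2.495 to 3.18) all lay above those of controls (1.39 to 1.90). There, column brightness and pregnancy cannot be told apart. On the 18KO array the medians of the groups overlapped. Precision is limited by how few animals there were. The authors sequenced chiefly clones that had differed between these same animals, so that a named gene that differs is no independent evidence.

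The genes tied to contraction, ACTA2 and MYLK, were lower in pregnant endometrium, and so was FLNA on both arrays, while WIPF3 was higher. ACTB missed the threshold, although each pregnant animal had less of it than each control. On the 18KO array 3 of the 4 genes were called, all lower, against 3.87% of the 1471 features and 29.2% of the 72 named genes of that array called lower. On the 18KB array FLNA was called lower, as were 0.634% of 1420 features and 10.5% of 86 named genes, and WIPF3 was called higher, as were 15.6% of features and 77.9% of named genes. The median log2 difference of the 4 genes on the 18KO array was -1.50, against -0.02 over all its features and -1.34 over its named genes, and so lay near that of the named genes.

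**Figure D1:**
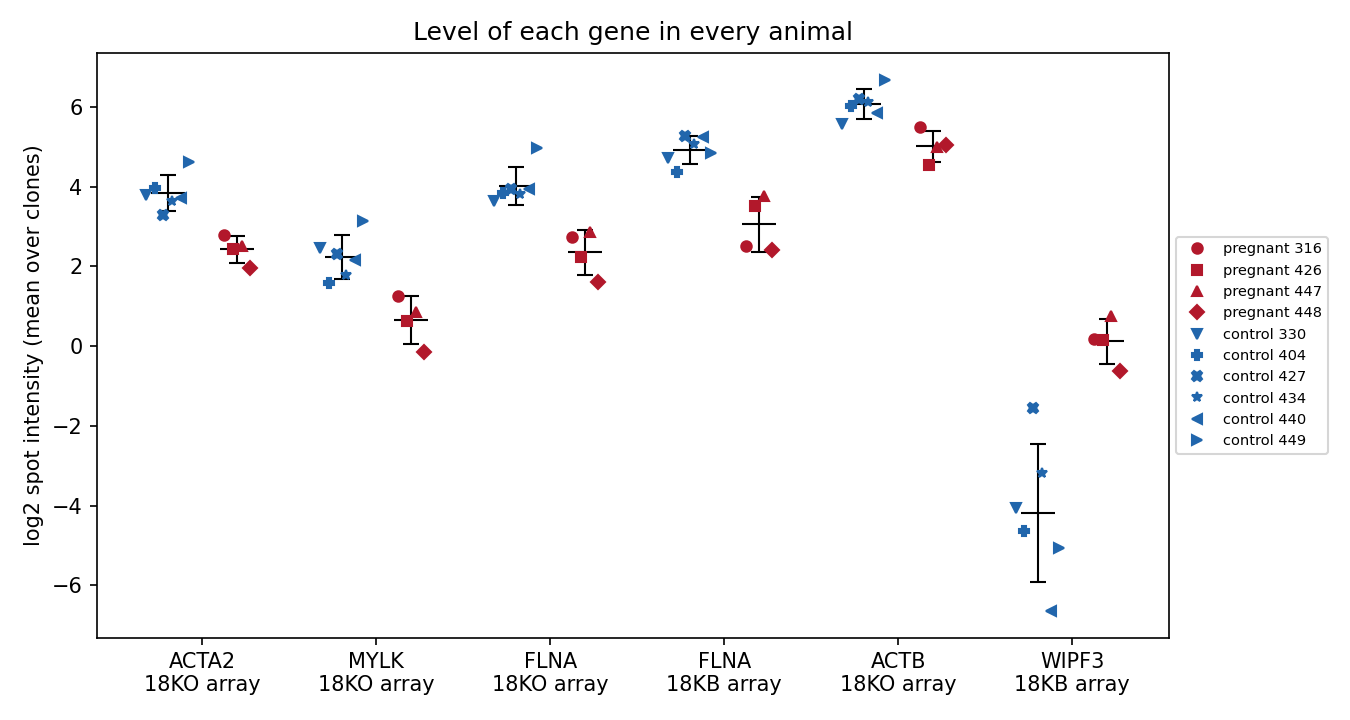
Log2 spot intensity of each gene in every animal (y axis, log2 of linear intensity, mean over the clones of a gene; x axis, gene and array). Red points are the 4 pregnant and blue points the 6 control animals, each animal with its own symbol, and black bars give the group mean and SD; the red points of ACTA2, MYLK, FLNA and ACTB lie below all blue points, and those of WIPF3 above them.

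ACTA2, the smooth muscle actin, had intensities of 6.93 in pregnant 316, 5.38 in 426, 5.68 in 447 and 3.90 in 448, and in controls ran from 9.71 to 24.49 with a median of 13.6. The groups did not overlap, with the top pregnant value, in animal 316, below the control at the bottom, 427. The mean log2 level of the pregnant group was 2.42 ± 0.34 (SD, n = 4) and that of controls 3.84 ± 0.44 (SD, n = 6), a 2.67-fold lower level in pregnancy (-1.41 ± 0.28, limma adjusted p = 0.00508). The call was lost without any 1 of pregnant 426, 447 and 448 or of controls 330, 404 and 440, at values of -1.44 to -1.26 and adjusted p-values of 0.0105 to 0.0237 by limma. In bulk tissue, fewer cells of a type and less RNA per cell cannot be told apart.

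MYLK, the myosin light chain kinase, had a mean intensity over its 2 clones of 2.40 in pregnant 316, 1.55 in 426, 1.81 in 447 and 0.906 in 448, and of 2.98 to 8.76 in controls (median 4.72). Every pregnant animal lay below control 404, the control with the least MYLK. The level was 3.0-fold lower in pregnant animals (-1.58 ± 0.34, limma adjusted p = 0.00856), with log2 means of 0.65 ± 0.59 (SD, n = 4) and 2.24 ± 0.55 (SD, n = 6). This call stood close to the threshold. It was lost without any 1 of pregnant 426, 447 and 448 or of controls 330, 427, 434, 440 and 449, with log2 differences of -1.67 to -1.32 and limma adjusted p-values of 0.0101 to 0.0304. The call was also lost when all readings of the array were floored at its 10th percentile (limma adjusted p = 0.0216). No MYLK reading lay below that floor (0.37) and the difference stayed at -1.58, so that the call changed through the other clones.

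The clones of MYLK gave like differences of unequal certainty. Clone 18KO-03-A07 read 1.14 to 2.07 in pregnant animals and 3.09 to 8.18 in controls and was called (-1.67 ± 0.32, limma adjusted p = 0.00321 over all 1536 clones). Clone 18KO-07-H04 read 0.72 to 2.79 in pregnant animals and 2.87 to 9.39 in controls and was not called (-1.50 ± 0.41, limma adjusted p = 0.0216). The highest pregnant reading of the second clone, 2.79 in animal 316, came close to the lowest control reading of 2.87. The log2 ratio between the clones ranged from -0.44 to 1.11 over the 10 animals, and its difference between the groups was -0.16 (two-sided exact permutation p = 0.633, 0.767 after adjustment over 5 pairs of clones).

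FLNA, the actin cross-linker, was measured on both arrays in each animal. On the 18KB array its single clone read 5.73 in pregnant 316, 11.41 in 426, 13.68 in 447 and 5.29 in 448, and 20.60 to 38.83 in controls (median 31.1). On the 18KO array the mean over 3 clones was 6.60, 4.74, 7.23 and 3.05 in the same pregnant animals and 12.4 to 31.2 in controls (median 14.9). The groups did not overlap on either array. Among pregnant animals 448 was lowest and 447 highest on both arrays, whereas 316 stood near the bottom on the 18KB and near the top on the 18KO array.

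The level of FLNA was 3.64-fold lower in pregnant animals on the 18KB array (-1.87 ± 0.30, limma adjusted p = 0.000711) and 3.18-fold lower on the 18KO array (-1.67 ± 0.32, limma adjusted p = 0.00387). Log2 means on the 18KB array were 3.05 ± 0.69 (SD, n = 4) and 4.92 ± 0.35 (SD, n = 6). Those on the 18KO array were 2.36 ± 0.56 (SD, n = 4) and 4.02 ± 0.48 (SD, n = 6). On the 18KB array FLNA was called without any 1 of the 10 animals (-2.11 to -1.65). On the 18KO array the call was lost without pregnant 426 or 448, at -1.63 and -1.42 and limma adjusted p-values of 0.0175 and 0.0168. It was also lost with the floor at the 10th percentile (limma adjusted p = 0.0106). No FLNA reading of that array lay below the floor, and the difference stayed at -1.67.

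The 3 FLNA clones of the 18KO array were each called. Clone 18KO-03-C02 read 2.33 to 4.13 in pregnant animals and 7.04 to 16.43 in controls, a difference of -1.48 ± 0.28. For clone 18KO-05-H03 the readings were 2.71 to 8.68 and 15.23 to 27.60 (-1.69 ± 0.33), and for clone 18KO-07-B12 they were 4.50 to 11.48 and 15.69 to 67.23 (-1.83 ± 0.40). Their limma adjusted p-values were 0.00321, 0.00321 and 0.00694 in that order. Control 449 gave the highest reading of all 3 clones; its column also had the highest median of the 18KO array (3.90), and relative to the column medians its FLNA level (3.0 on the log2 scale) lay 0.07 above that of control 427 (2.93).

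**Figure D2:**
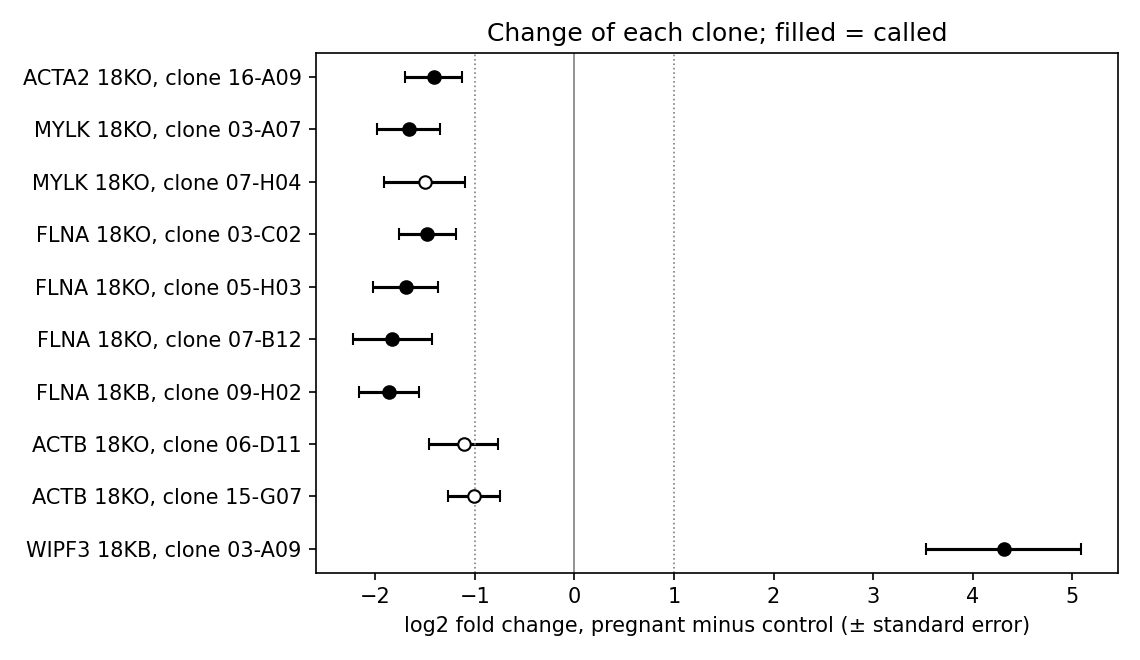
Log2 difference, pregnant minus control (x axis), of each of the 10 clones (y axis, gene, array and clone position) with its standard error from limma as the bar; filled points were called and open points were not, and dotted lines mark a 2-fold change. The 9 clones of ACTA2, MYLK, FLNA and ACTB lie between -1.87 and -1.0, and the WIPF3 clone at 4.31.

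The change of FLNA did not differ detectably between the arrays when the values were used as deposited. The interaction of pregnancy and array was -0.20 ± 0.47 (18KB minus 18KO, limma adjusted p = 0.999 over the 10 genes named on both arrays; -0.20 ± 0.31 and adjusted p = 0.999 with the animal as replicate block). Per animal, the log2 ratio of the 18KB to the 18KO level was -0.20 for pregnant 316 and 0.79 to 1.27 for the 3 others carrying a conceptus, and among controls -0.13 in 449 and 0.52 to 1.33 in the others (two-sided exact permutation p = 0.595, 0.984 after adjustment). In these ratios of values as deposited, animals 316 and 449 stood apart from the rest. Control 449 had the lowest column median of the 18KB array (1.39) and the highest of the 18KO array (3.90), so that its ratio rests on the scaling. Pregnant 316 was the animal whose 18KO hybridisation was repeated, and the part of that repeat was not tested. Without pregnant 316 the interaction was 0.10. It depended on the scaling, for with equal column medians it was -1.36 (limma adjusted p = 0.00536) and with quantile normalization -1.08 (limma adjusted p = 0.0414).

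ACTB, the cytoskeletal actin often used as a reference transcript, had a mean intensity over its 2 clones of 45.1 in pregnant 316, 23.2 in 426, 31.7 in 447 and 32.8 in 448, while controls ran from 47.4 to 103 (median 67.4). The groups did not overlap, although pregnant 316 lay just under control 330. The difference was -1.06 ± 0.27, a 2.08-fold lower level, and was not called (limma adjusted p = 0.0236; two-sided exact permutation p = 0.00476, the smallest that the 210 splits can give). Log2 means were 5.01 ± 0.39 (SD, n = 4) and 6.07 ± 0.38 (SD, n = 6). ACTB passed with an adjusted p threshold of 0.05, and it was called with 1 scaling factor per animal from both arrays (-1.31). With equal column medians it was -0.73 and not called. The pass of ACTB at the threshold of 0.05 rested on single animals. Without pregnant 426 the difference was -0.90 (limma adjusted p = 0.0844) and without pregnant 447 it was -1.05 (limma adjusted p = 0.0572). Without control 449 it was -0.94, a change under 2-fold.

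The ACTB clones differed in how they ordered the animals. Clone 18KO-06-D11 read 62.03 for pregnant 316 and 27.70 to 47.89 for the 3 others of that group, and from 51.96 in control 330 to 179.58 in control 449, so that its groups overlapped (-1.11 ± 0.34, limma adjusted p = 0.0398). Clone 18KO-15-G07 read 19.38 to 32.72 in pregnant animals and 42.35 to 73.81 in controls, with no overlap (-1.0 ± 0.26, limma adjusted p = 0.0188). The highest control was 449 for the first clone and 427 for the second. Actin genes resemble each other closely in their coding sequence, and whether these spots and that of ACTA2 also bind transcripts of other actins was not tested.

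At the level of clones, 5 of 8 were called on the 18KO array, all lower, where 6.32% of the 1536 clones were called lower. On the 18KB array 2 of 2 were called, FLNA lower and WIPF3 higher, where 0.716% were called lower and 20.5% higher. Values of pregnant and control animals did not overlap in 9 of the 10 clones, the exception being ACTB clone 18KO-06-D11. Of all clones, the pregnant values lay wholly below in 12.2% on the 18KO and 1.82% on the 18KB array, and wholly above in 26.7% on the 18KB array. Counted by gene, the groups overlapped in none of the 6 measurements. Pregnant values lay wholly below in 9.59% of all features and 62.5% of named genes of the 18KO array and in 1.83% and 8.14% of those of the 18KB array, and wholly above in 22.3% and 75.6% of the latter.

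WIPF3, of the WIP family, was the single member that rose. Its intensity was 1.13 in pregnant 316, 1.12 in 426, 1.70 in 447 and 0.65 in 448, while controls ran from 0.01 to 0.34 (median 0.05). Every pregnant animal lay above control 427, at 0.34, and the other 5 controls lay at 0.01 to 0.11, below the 10th percentile of all values of the array (0.32). The fitted log2 difference was 4.31 ± 0.77 (limma adjusted p = 0.00132), with log2 means of 0.12 ± 0.57 (SD, n = 4) and -4.19 ± 1.73 (SD, n = 6). Its size rested on readings near 0, and with a floor at the 10th percentile it was 1.75, still called. The call was kept without any 1 animal (3.82 to 4.84).

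Markers of the trophoblast, which surrounds the embryo, had unequal levels in the pregnant samples, and WIPF3 did not follow their order. The summed intensity of the 3 trophoblast markers named on the 18KB array (IFNT2, TKDP1 and TKDP4) was 41.7 for pregnant 448, 8.05 for 426, 4.30 for 447 and 1.44 for 316, while controls ran from 0.955 to 1.79. WIPF3 was lowest among pregnant animals in 448, which had the highest sum, and in 316, whose sum lay within the control range, it was 1.13. Whether RNA of the conceptus had a part in the WIPF3 values was not tested, and the order of so few animals cannot decide it.

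**Figure D3:**
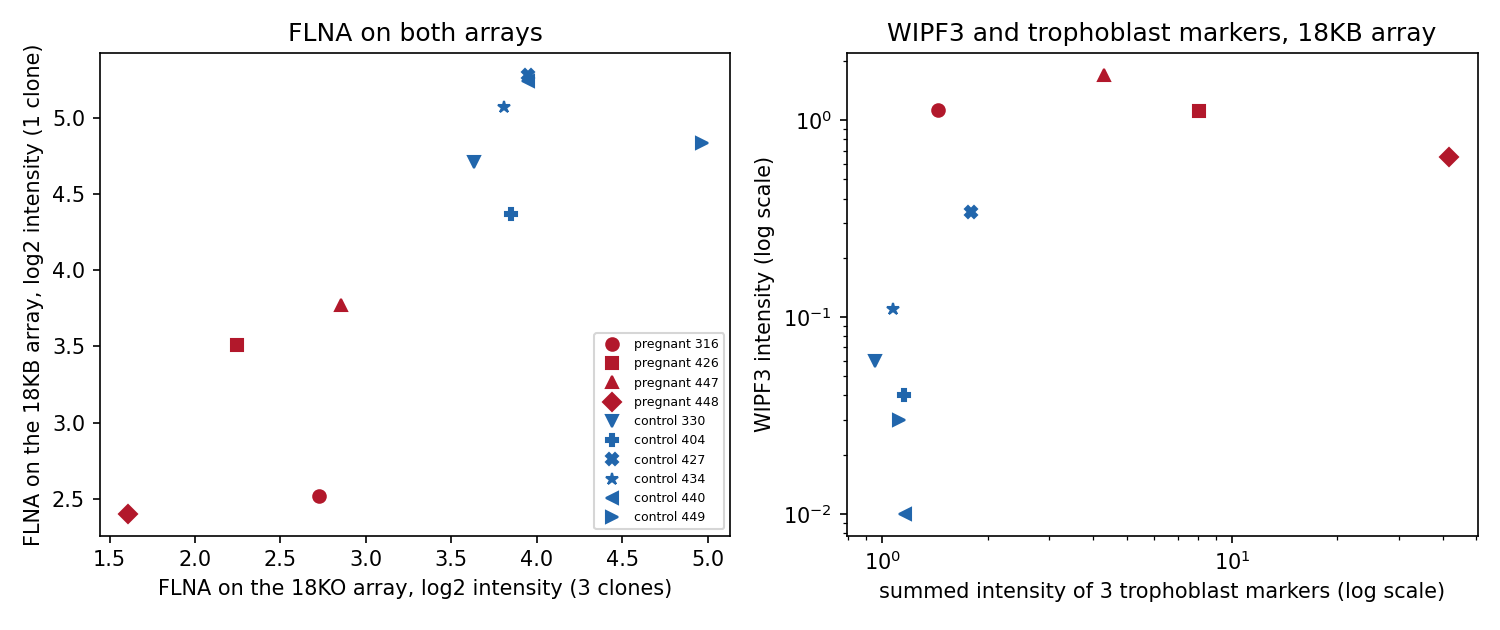
Left, log2 intensity of FLNA on the 18KO (x axis, mean of 3 clones) and the 18KB array (y axis, 1 clone) in the 10 animals, red for pregnant and blue for control. Right, WIPF3 intensity (y axis, log scale) against the summed intensity of 3 trophoblast markers on the 18KB array (x axis, log scale) with the same symbols; pregnant 448, at a sum of 41.7, has the lowest WIPF3 of the pregnant animals (0.65), and pregnant 316 has 1.13 at a sum of 1.44.

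Differences in change between the members of the 18KO array did not pass the test with these animals. Log2 ratios between 2 genes in the same column are left as they are by any scaling that uses 1 factor per column, though not by quantile normalization, and they were compared for all 7 pairs of members on 1 array. For these pairs, and for the comparison of FLNA between arrays, the threshold was an adjusted p of 0.05. ACTB fell less than FLNA in its fitted value, so that the log2 ratio of ACTB to FLNA was 2.66 ± 0.58 (SD, n = 4) with and 2.05 ± 0.24 (SD, n = 6) without pregnancy, but this difference of 0.61 did not pass (two-sided exact permutation p = 0.0429, 0.15 after adjustment). With the brightest clone per gene the difference was 0.72, and its adjusted exact permutation p of 0.05 lay at the threshold and not under it. For FLNA against MYLK the difference was -0.08 (exact permutation p = 0.705, the same after adjustment). The other 4 pairs of the 18KO array differed by -0.36 to 0.53, with adjusted exact permutation p-values of 0.347 to 0.628. FLNA and WIPF3 on the 18KB array moved apart by -6.18 (exact permutation p = 0.00476, 0.0333 after adjustment), or by -3.62 with the floor at the 10th percentile. Pregnant animals lay wholly below controls for FLNA and wholly above them for WIPF3, so that their ratio had to separate the groups. A small p-value for this pair was thus largely set in advance and is no further evidence. Separation alone does not fix its exact size, for WIPF3 by itself also separated the groups, at a two-sided exact permutation p of 0.00952. With quantile normalization, added after seeing the data, the difference was 0.52 for ACTB against FLNA, -0.16 for FLNA against MYLK and -5.77 for FLNA against WIPF3, and each of the 7 pairs stayed on its side of the threshold.

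Pregnant animals differed from each other in a similar manner for ACTA2, MYLK and FLNA. Animal 448 had the lowest level of all 3 on the 18KO array, and its column had the lowest median of that array (1.67). This was not particular to these genes. As deposited, 448 was also the lowest pregnant animal for ANXA2 (6.64), CHPF (0.36) and SERPINH1 (1.51), among others. For TUBA1A, COL6A1 and TUBB the lowest was 426. Relative to the column medians, 448 was still the lowest for ACTA2 (1.23, against 1.31 to 1.55 in the other pregnant animals), for FLNA (0.87, against 1.12 to 1.73) and for MYLK (-0.88, against -0.49 to 0.03), on the log2 scale. For ACTB it was the highest of the pregnant animals on that scale (4.30, against 3.41 to 4.25). With levels taken relative to column medians, the groups still did not overlap for any of the 6 measurements, where pregnant animals lay wholly below in 6.32% of 18KO and 30.1% of 18KB features and wholly above in 7.18% of 18KB features.

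**Figure D4:**
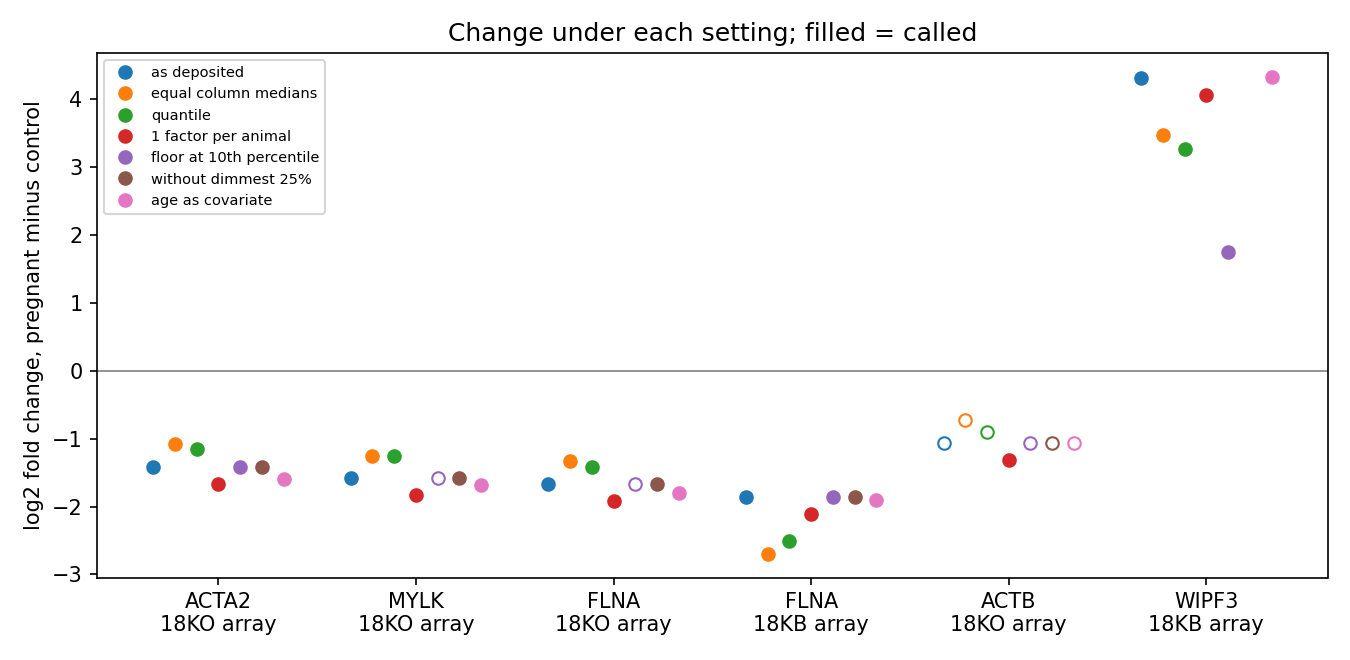
Log2 difference, pregnant minus control (y axis), of each gene and array (x axis) under 7 settings, one colour each: values as deposited, 3 other scalings, a floor at the 10th percentile, without the dimmest 25% of clones, and with age as a covariate; filled points were called. Every value of ACTA2, MYLK, FLNA and ACTB is below 0 and every value of WIPF3 above 0; WIPF3 has no value without the dimmest clones, to which it belongs.

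The direction of each member was the same under every scaling tried. With equal column medians, ACTA2 was at -1.08, MYLK at -1.25, FLNA at -1.34 on the 18KO and -2.70 on the 18KB array, and WIPF3 at 3.48, and all of these were called. That scaling moved the median difference over all clones from 0.44 to -0.39 for the 18KB array and from -0.06 to 0.27 for the 18KO array. The called clones were 315 higher and 11 lower on the 18KB array as deposited, and 152 higher and 174 lower with equal medians; on the 18KO array 18 higher and 97 lower became 82 and 93. With quantile normalization the splits were 178 and 139 on the 18KB and 53 and 104 on the 18KO array.

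Of 113 other genes of the actin cytoskeleton and of contraction that were listed, none had a single symbol on the 18KB array (0) and 1 did on the 18KO array. This was ZYX, or zyxin, a protein of focal adhesions and actin stress fibres, with readings of 1.06, 1.07, 1.40 and 0.67 in pregnant 316, 426, 447 and 448 and of 1.46 to 4.37 in controls. Its groups did not overlap, but it was not called (-1.16 ± 0.34, limma adjusted p = 0.0388). The other 112 genes of the list, among them myosin heavy and light chains, tropomyosins and calponins, were not analysed here.

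Markers of other cells also differed between the groups. Of 15 markers of smooth muscle and pericytes, ACTA2 and MYLK themselves were the 2 with a name. On the 18KB array 3 of 12 stroma markers had a name (COL1A1, COL1A2 and COL3A1) and 3 were called lower, with a summed intensity of 107 to 436 in pregnant animals and of 622 to 1415 in controls. On the 18KO array 6 had a name, of which 3 were called lower (COL1A1, COL3A1 and COL6A3). NR2F2 was called higher (1.52 ± 0.33, limma adjusted p = 0.00962), and COL1A2 and FBLN1 were lower but not called. The sum of the 6 was 69.5 to 275 in pregnant animals and 328 to 1086 in controls. It gives more weight to brighter spots and does not show the rise of NR2F2. Pregnant 448 had the lowest sum on both arrays. The part of these markers in the lower values of FLNA, ACTA2, MYLK and ACTB was not tested. Of 9 epithelial markers CLDN4 (1.96 ± 0.58) and CLDN10 (-1.93 ± 0.77) had a name on the 18KO array and neither was called (limma adjusted p = 0.0393 and 0.12). Their summed intensity was 19.6 to 33.4 in pregnant animals and 7.16 to 20.8 in controls, with overlap. The markers CLDN4 and CLDN10 moved in opposite directions (median log2 difference 0.02), and a sum gives more weight to a brighter spot. The sum thus gives no direction for the epithelium. None of the endothelial, leukocyte or erythrocyte markers had a name on either array, so that the make-up of the tissue could not be checked further.

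The named genes whose profiles over the 10 animals were most like those of the members differed from one member to the next. Likeness was measured as the root mean square difference between log2 profiles, each centred on its own mean, among the other 85 named genes of the 18KB or 71 of the 18KO array, and it includes the difference between the groups. FLNA on the 18KB array was nearest to COL3A1 (0.28), COL1A1 (0.46) and COL6A1 (0.49), and on the 18KO array to CHPF (0.21), RARRES1 (0.26) and MAGED1 (0.27). MYLK was nearest to FLNA itself (0.29), then to SERPINH1 (0.32) and SMOC2 (0.34). ACTA2 was nearest to ANXA2, MAGED1 and CDCA7L (0.25 for each).

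ACTB was nearest to the tubulin TUBA1A (0.30), the collagen chain COL6A1 (0.35) and the tubulin TUBB (0.35). For WIPF3 the nearest profiles depended on how readings near 0 were treated, since 5 of its 6 control readings lay below the 10th percentile. With values as deposited they were those of ISG15 (0.90), UBA7 (0.90) and MX1 (0.98). With the floor at the 10th percentile, added after seeing the data, they were those of CAPN6 (0.15), SHFL (0.23) and TAP1 (0.26), and ISG15 ranked 80 of 85 (1.67). No nearest gene of WIPF3 can therefore be named from these data. For each of the other 5 measurements the same 3 genes were nearest with that floor. No reading of those members lay below the floor, so that this is no check of their nearest genes.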

How the data were processed

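The authors deposited linear spot intensity values from 33P-labelled cDNA on spotted clones, per the labels. Their background subtraction and column scaling are not stated in these sources. Values under 0.01 were set to 0.01 before log2, and clones with 1 symbol were averaged per gene. Gene names come from the platform's gene annotation, which may be outdated; all 5 gene identifiers carried the same symbol in RefSeq's table of assembly ARS-UCD2.0. Groups were compared per array with limma 3.58.1 in R 4.3.3, with adjustment over all features. The fit was tested on simulated data with independent noise in each clone. Those data held no difference in column brightness, so that the test could not show its effect. Ratios between members were compared by exact permutation over all 210 splits, with adjustment over 7 pairs. Figures were drawn with matplotlib 3.10.9.

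The members, gene lists and tests were chosen with earlier results of these data known. All member clones are given; from each list the named genes are given by count, and for likeness the 3 nearest genes per member.

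Animal numbers pair the arrays of an animal, per the labels, and pregnant and control animals share none. Alternatives were column scaling, floor, pseudocount, filter, threshold, prior, array weights, age, clone choice, adjustment over named genes and leaving out each animal. The labels name each animal as a separate heifer.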

Additional observations from a re-analysis of the deposited data

Results flagged for a closer look

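Control 449 stood far from the other controls for FLNA on the 18KO array, with a mean intensity over 3 clones of 31.24 against 12.41 to 15.43 in the other 5. The same animal stood apart in 2 of the 3 clones: 18KO-05-H03 read 27.6 against 15.23 to 17.08, and 18KO-07-B12 read 67.23 against 15.69 to 26.00. On the 18KB array FLNA in this animal, at 28.56, lay inside the range of the other controls (20.60 to 38.83). Its 18KO column had the highest median of that array (3.90), and relative to column medians the log2 level of FLNA was 3.0 in this animal and 2.35 to 2.93 in the other controls. Chance marks about 1 in 20 groups in this way, and 26 groups were examined. Without control 449 the difference of FLNA on the 18KO array was -1.48 and was still called.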

How the results depend on the processing

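All 133 values of the member genes under the alternatives tried kept their direction. Many of them could not have changed it, so that the count is no measure of robustness. Where groups do not overlap, leaving out 1 animal cannot reverse a difference, and the threshold, prior, adjustment and filter leave it as it was. On the 18KO array, the floor at the 10th percentile ended the calls of MYLK (-1.58) and FLNA (-1.67), leaving 1 member called, while ACTB was called with 1 factor per animal (-1.31) and at an adjusted p threshold of 0.05 (-1.06). Leaving out the dimmest clones removed WIPF3, leaving 1 member called on the 18KB array. With 1 animal left out, 0 to 3 members were called on the 18KO array, with log2 differences of -1.54 to -1.26 for ACTA2, -1.79 to -1.32 for MYLK and -1.83 to -1.42 for FLNA. Clones called on the 18KO array numbered 115, or 175 with equal column medians, 247 with 1 factor per animal, 69 with the floor, 224 at the threshold of 0.05, and 58 to 114 with 1 animal left out. The difference of the FLNA change between arrays was -1.36 with equal column medians, -1.08 with quantile normalization and -0.40 to 0.10 with 1 animal left out; the replicate block left it at -0.20 and changed no call. With 1 animal left out, FLNA over MYLK was -0.20 to 0.015, and FLNA over WIPF3 -6.63 to -5.62, where the smallest adjusted p that 9 animals allow (0.0556 or 0.0833) lies above the 0.05 used for pairs. A block of the 18KB columns without values at the floor, chosen after seeing the data, gave -2.15 for FLNA and 3.71 for WIPF3, both called. The floor altered no MYLK or FLNA reading of the 18KO array, and so ended their calls through the other clones. The cause of the other shifts was not tested, beyond that a filter or a left-out animal leaves fewer clones or samples. Readings near 0 limit the size of the WIPF3 change.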
